A study of Mus musculus with 258 samples.

Results

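Kdm6b and Kdm6a encode Jmjd3 and Utx, the demethylases of trimethylated lysine 27 of histone H3 (H3K27me3). The 2 genes were chosen by symbol from 40824 genes in the read count tables of a study of endocrine cell formation in the embryonic mouse pancreas. They were followed through 3 bulk groups of 2 libraries and 4 groups of single cells. The single cells came from E13.5 dorsal pancreas (embryonic day) and comprised 69 Ngn3-low and 44 Ngn3-high cells with a Pdx1-Cre transgene and a floxed Jmjd3 gene (Jmjd3 fl/fl), here called Jmjd3-deleted, and 49 WT Ngn3-low and 59 WT Ngn3-high cells. The bulk groups were the same pair of gates at E13.5, with no genotype in the labels, and Ins1-RFP positive cells from E17.5 embryos, which the study calls nascent beta cells. Sorting was by the strength of a green reporter of Ngn3, the protein of Neurog3, or by a red reporter driven from Ins1. Pdx1-Cre is active in the pancreatic epithelium, and for WT cells no Cre is named in the labels, nor a sex or animal for any sample. Effects of Cre itself and of the deletion therefore cannot be told apart, and each group of single cells counts as 1 sample.

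H3K27me3 is placed by Polycomb repressive complex 2 (PRC2), whose catalytic subunit is Ezh2 or Ezh1, and marks silenced developmental genes. Jmjd3 and Utx remove the methyl groups through a JmjC domain, and Utx is also a subunit of the complexes around Kmt2c and Kmt2d, which methylate lysine 4 of histone H3 at enhancers. Kdm6a lies on the X chromosome and escapes X inactivation in mouse, so that cells with a pair of X chromosomes read both copies, and Uty on the Y chromosome is its counterpart, with little demethylase activity. Kdm6b is autosomal and is known in macrophages as a gene induced by inflammatory stimuli.

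In the RefSeq annotation of GRCm38.p6, Kdm6b (ENSMUSG00000018476) lies at chr11:69398508-69420367, Kdm6a (ENSMUSG00000037369) at chrX:18160862-18279936 and Uty (ENSMUSG00000068457) at chrY:1085187-1245773. The gene lengths listed in the count tables were 6654 bases for Kdm6b, 5935 for Kdm6a and 5208 for Uty. Promoter sequences were found for 2 of these 3 genes, Kdm6a and Uty. They are shown because the values of Kdm6a in single cells have to be read beside those of X and Y transcripts. Each window runs from 250 bases before to 50 bases after an annotated start, at chrX:18162325-18162624 on the plus strand and at chrY:1245710-1246009 on the minus strand. The Kdm6a window lies wholly inside the gene as placed above, whereas the Uty window covers the upstream end of its gene. The windows thus differ in their place in the gene. Capitals mark CACGTG, a palindrome that reads the same on both strands.
Kdm6a: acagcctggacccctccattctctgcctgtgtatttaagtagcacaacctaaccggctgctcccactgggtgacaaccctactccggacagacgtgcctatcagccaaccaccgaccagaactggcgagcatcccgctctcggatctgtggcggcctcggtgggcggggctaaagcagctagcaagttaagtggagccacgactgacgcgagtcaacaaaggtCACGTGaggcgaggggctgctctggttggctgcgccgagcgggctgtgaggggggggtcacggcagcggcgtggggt
Uty: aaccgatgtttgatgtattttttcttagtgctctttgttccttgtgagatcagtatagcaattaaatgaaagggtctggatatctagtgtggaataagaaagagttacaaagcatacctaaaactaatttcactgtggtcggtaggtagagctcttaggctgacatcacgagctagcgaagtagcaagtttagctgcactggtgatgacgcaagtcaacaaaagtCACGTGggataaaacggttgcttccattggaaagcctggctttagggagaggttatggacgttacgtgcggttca
Both windows held 1 CACGTG, which began 27 bases before the start in Kdm6a and 25 bases before it in Uty. Of 32851 mouse promoter windows of this length, 7.15% held these letters. In the best local alignment of both windows the motif lay in a stretch of 62 columns, 75.8% of them identical. The sequences are those of RefSeq. The Kdm6a window had a GC content of 63% and 21 CpG, against 42.3% and 10 CpG in the Uty window.

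Reads in genes numbered 11957415 to 17760214 per bulk library and 380478 to 1949839 per single cell, with a median cell of 708409. Levels are given in CPM, reads of a gene scaled to a fixed total of reads in genes. Bulk differences are on the log2 scale and come from edgeR's quasi-likelihood test over 15684 genes, with further rescaling of the libraries and Benjamini-Hochberg adjustment. The labels do not say that bulk replicates came from separate litters, so the p-values cover the spread between libraries only. The sorts carried their defining transcripts. Neurog3 stood at 193 and 161 CPM in Ngn3-low libraries, at 1191 and 1090 CPM in Ngn3-high libraries and at 28.2 and 26.99 CPM in Ins1-RFP positive libraries. Ins1 was at 22566 CPM or more in both Ins1-RFP positive libraries and at 90.3 CPM or less in the other four. White blood cell markers, 11 genes in sum, stood at 2427 to 2926 CPM in Ngn3-low libraries, 12.2 to 23.9 CPM in Ngn3-high libraries and 75.1 to 131 CPM in Ins1-RFP positive libraries. The 11 endothelium markers stood at 486 and 531 CPM in Ngn3-low, at 15.7 and 9.87 CPM in Ngn3-high and at 61.7 and 73.4 CPM in Ins1-RFP positive libraries. The 12 acinar markers summed to 26576 CPM in Ins1-RFP positive library 2, against 1490 CPM in library 1, and the 6 mesenchyme markers to 674 CPM, against 179 CPM in library 1.

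Kdm6b was lowest in Ngn3-low cells, highest in Ngn3-high cells and between them in Ins1-RFP positive cells. It stood at 181 and 173 CPM in the 2 Ngn3-low libraries, 348 and 316 CPM in the Ngn3-high libraries and 254 and 224 CPM in the Ins1-RFP positive libraries. No 2 groups overlapped, at 2 libraries each, and the share of all genes that separate in this way is not given here. In bulk samples, fewer cells of a type and less RNA per cell cannot be told apart. Ngn3-high cells averaged 332 ± 22.5 CPM and Ngn3-low cells 177 ± 5.52 CPM (SD, n = 2 each), and Kdm6b rose by 0.99 on the log2 scale (SE 0.125, edgeR adjusted p = 0.000202). In this comparison 27.7% of all tested genes rose at an adjusted p under 0.05, and 38.2% of all tested genes had a larger change in either direction than Kdm6b. The rise held under all 12 alternative settings, with log2 values of 0.89 to 1.08.

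From Ngn3-high cells to the later stage Kdm6b fell, by a smaller step that not all settings called. Ins1-RFP positive cells averaged 239 ± 21 CPM (SD, n = 2), against 332 ± 22.5 CPM in Ngn3-high cells (SD, n = 2), at a log2 fold change of -0.39 (SE 0.124, edgeR adjusted p = 0.0288). Of all tested genes, 24.9% fell. The call was lost in 5 of 12 alternatives, with an edgeR adjusted p = 0.0564 when only these 2 groups were fitted, 0.0543 without Ngn3-low library 1, 0.0550 without Ngn3-low library 2, 0.123 without Ngn3-high library 1 and 0.174 without Ins1-RFP positive library 2. Against Ngn3-low cells, Ins1-RFP positive cells were higher in Kdm6b by 0.60 (SE 0.124, edgeR adjusted p = 0.00282), a comparison in which 30.4% of genes rose, and this held in all 12 alternatives.

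Kdm6a was also highest in Ngn3-high cells, with a smaller rise than Kdm6b. It stood at 99.9 and 96.9 CPM in Ngn3-low libraries, 125 and 134 CPM in Ngn3-high libraries and 96.5 and 82.7 CPM in Ins1-RFP positive libraries. Both Ngn3-high libraries were above all others, and the other groups came within 0.454 CPM of each other. The share of all genes with such an order is not given here. Kdm6a rose in Ngn3-high cells, with 130 ± 6.03 CPM against 98.4 ± 2.09 CPM in Ngn3-low cells (SD, n = 2 each), by 0.48 on the log2 scale (SE 0.114, edgeR adjusted p = 0.00678). It fell in Ins1-RFP positive cells, with 89.6 ± 9.74 CPM (SD, n = 2), at a log2 fold change of -0.45 against Ngn3-high cells (SE 0.114, edgeR adjusted p = 0.0116). The first call was lost without Ngn3-low library 2 (edgeR adjusted p = 0.0588) and the second without Ins1-RFP positive library 2 (edgeR adjusted p = 0.103). Between Ins1-RFP positive and Ngn3-low cells the difference did not pass, at 0.03 with a 95% interval of -0.23 to 0.29 (edgeR adjusted p = 0.820), and its sign turned with total counts in place of trimmed-mean scaling, without Ngn3-low library 2 and without Ins1-RFP positive library 1. Ngn3-high cells thus came first in the order for Kdm6a, and the difference between the other groups was within their spread.

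**Figure D1:**
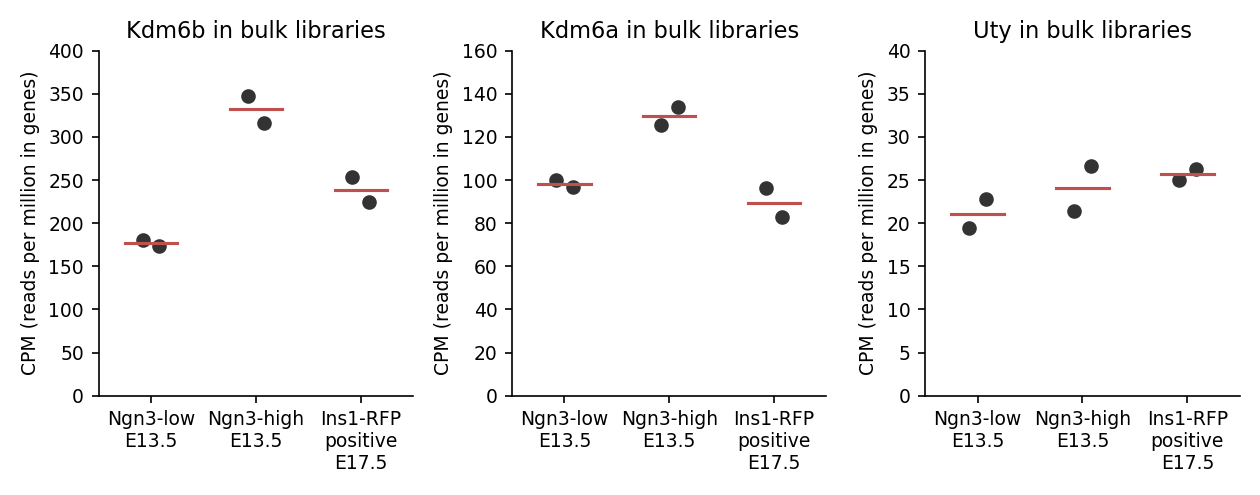
CPM of Kdm6b, Kdm6a and Uty (vertical axes, from 0, on different scales) in each of the 6 bulk libraries (points) of Ngn3-low, Ngn3-high and Ins1-RFP positive cells, with the group mean as a line. Both Ngn3-high libraries were the highest for Kdm6b (316 and 348 CPM) and for Kdm6a (125 and 134 CPM), whereas the 6 values of Uty lay between 19.4 and 26.7 CPM.

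Uty, the Y-linked counterpart, was at 19.4 and 22.8 CPM in Ngn3-low libraries, at 21.4 and 26.7 CPM in Ngn3-high libraries and at 25.1 and 26.2 CPM in Ins1-RFP positive libraries. Ngn3-high and Ngn3-low values overlapped, and the difference of 0.27 did not pass (SE 0.160, edgeR adjusted p = 0.182). Xist, the transcript that coats the inactive X chromosome, was read at 570 to 1431 CPM in all 6 libraries, and 4 Y-linked genes together at 135 to 181 CPM. Every bulk library thus held reads of both kinds. Xist differed between the libraries of a group, with 859 and 1431 CPM in Ngn3-low libraries, 734 and 983 CPM in Ngn3-high libraries and 570 and 790 CPM in Ins1-RFP positive cells, and its part in the Kdm6a values was not tested.

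Per length, Kdm6b was the more abundant of the pair in every bulk library. In RPKM, which divides CPM by gene length in kilobases, it averaged 26.6 in Ngn3-low, 49.9 in Ngn3-high and 35.9 in Ins1-RFP positive cells, above 81.8%, 91.3% and 88.6% of tested genes in that order of groups. Kdm6a averaged 16.6, 21.9 and 15.1 RPKM in the same order, above 69.5%, 77.5% and 71.0% of tested genes. The ratio of Kdm6b to Kdm6a per length was 1.62 and 1.59 in Ngn3-low, 2.47 and 2.11 in Ngn3-high and 2.35 and 2.42 in Ins1-RFP positive libraries. Both Ngn3-low ratios were below the other four. An exact permutation test of the variance between groups in the log2 ratio took all 15 ways of dividing the 6 libraries into 3 pairs. It gave p = 0.2, where the smallest p it allows is 0.0667, so that no outcome could have passed 0.05. It covers the 3 groups together and does not test Ngn3-low libraries against the rest.

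A chosen list of 22 other genes of JmjC proteins, here called family genes, served as the background. It holds demethylases of other lysines as well as hydroxylases and is not the complete family, so ranks are within the list. By mean RPKM among these genes and the pair, Kdm6b ranked 5 of 24 in Ngn3-low, 2 in Ngn3-high and 2 in Ins1-RFP positive cells. Kdm5c, which encodes an X-linked demethylase of lysine 4, ranked first in each group. Kdm6a ranked 12, 13 and 10. Of 21 family genes tested in Ngn3-high against Ngn3-low cells, 11 rose, 4 fell and 6 did not pass, against 27.7% rising and 30.2% falling among all genes, and the median change was 0.30 against -0.01 for all genes. The rises numbered 6 without Ngn3-low library 2. Kdm7a, a demethylase of lysines 9 and 27, rose most, with 385 ± 59.4 CPM in Ngn3-high against 156 ± 1.90 CPM in Ngn3-low cells (SD, n = 2 each; log2 1.39, SE 0.134, edgeR adjusted p = 4.14e-05). Kdm4b rose by 1.12, Phf8 by 1.02 and Kdm5b by 0.80, beside 0.99 for Kdm6b. Riox2 fell by 0.88, Jmjd1c by 0.80, Kdm2b by 0.60 and Kdm3b by 0.31, and the call of Kdm3b was kept in 8 of 12 alternatives.

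In Ins1-RFP positive against Ngn3-high cells, 11 of the 21 family genes fell and 1 rose, with a median of -0.47 against 0.01 for all genes, of which 24.9% fell and 26.1% rose. Kdm7a fell by 1.17, Kdm5b by 0.85, Kdm3a by 0.82 and Kdm5a by 0.81, all larger falls than that of Kdm6b. Riox2, the single rise (0.46, SE 0.163, edgeR adjusted p = 0.0451), kept its call in 4 of 12 alternatives and lost it without each library but Ins1-RFP positive library 2. Ins1-RFP positive against Ngn3-low cells gave 4 rises and 8 falls, with a median of -0.02 against -0.08 for all genes (30.4% rose and 35.5% fell). Kdm4c rose by 0.60, Kdm4b by 0.49, Phf8 by 0.45 and Uty by 0.45 (kept in 7 of 12 alternatives), whereas Jmjd1c fell by 1.12, Kdm2b by 1.09, Kdm3b by 0.90 and Kdm3a by 0.89. The falls numbered 4 without Ngn3-low library 1, 4 without Ngn3-low library 2 and 5 without Ins1-RFP positive library 2, and the rises 2 without Ngn3-low library 1 and 2 with total counts as the scaling.

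The list of partners of Utx holds 9 genes, of which 5 rose and 1 fell in Ngn3-high against Ngn3-low cells (median 0.48 against -0.01 for all genes, of which 27.7% rose and 30.2% fell). Paxip1, an adaptor of the complex, rose by 1.21 (SE 0.156, edgeR adjusted p = 0.000234), the methyltransferase gene Kmt2c by 0.73, Dpy30 by 0.64 and Kmt2d by 0.51, while Wdr5, a subunit that all complexes of this kind share, fell by 0.39. The rise of Kmt2d did not pass with library 1 of either E13.5 gate left out. The fall of Wdr5 did not pass without either Ngn3-low library or without Ngn3-high library 2. Next to Ngn3-high cells, Ins1-RFP positive cells had 3 falls (Paxip1 by 0.58, Ash2l by 0.56 and Ncoa6 by 0.27, a call kept in 2 of 12 alternatives), with a median of -0.27 against 0.01 for all genes, of which 24.9% fell. With edgeR 0 of the 9 rose, where 26.1% of all genes did, and 1 of the 9 rose with the replicate number as a block. The falls numbered 1 without Ngn3-high library 1 and 1 without Ins1-RFP positive library 2. In Ins1-RFP positive against Ngn3-low cells, 4 rose (Pagr1a by 0.88, Paxip1 by 0.63, Dpy30 by 0.51 and Kmt2c by 0.47) and 3 fell (Wdr5 by 0.68, Rbbp5 by 0.48 and Ash2l by 0.44), with a median of 0.21 against -0.08 for all genes, of which 30.4% rose and 35.5% fell. The rises numbered 2 without Ngn3-low library 2. Of these 7 calls, those of Paxip1 and Wdr5 were kept in all 12 alternatives, those of Pagr1a and Rbbp5 in 11, those of Dpy30 and Ash2l in 10 and that of Kmt2c in 9.

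The methyltransferase genes of PRC2 moved in opposite directions in Ins1-RFP positive against Ngn3-high cells. Ezh2, the methyltransferase gene of PRC2 in dividing cells, averaged 158 ± 5.32 CPM in Ngn3-low, 89.4 ± 4.77 CPM in Ngn3-high and 26.9 ± 0.169 CPM in Ins1-RFP positive cells (SD, n = 2 each). It fell by 0.74 in Ngn3-high against Ngn3-low cells (SE 0.0966, edgeR adjusted p = 0.000259) and by 1.65 in Ins1-RFP positive against Ngn3-high cells (SE 0.102, edgeR adjusted p = 1.12e-05). Ezh1, its counterpart in non-dividing cells, averaged 62 ± 5.22 CPM in Ins1-RFP positive against 38.4 ± 3.38 CPM in Ngn3-high cells (SD, n = 2 each) and rose by 0.77 (SE 0.131, edgeR adjusted p = 0.00164), while Ngn3-high and Ngn3-low cells differed by 0.12 (edgeR adjusted p = 0.469). Of the 11 PRC2 genes, 2 rose and 4 fell in Ngn3-high against Ngn3-low cells (median 0.06 against -0.01 for all genes), near or under the 27.7% and 30.2% of all genes. Phf1 and Jarid2, both accessory subunits, rose by 1.50 and 1.01, and Rbbp7 and the core gene Eed fell by 0.78 and 0.76. In Ins1-RFP positive against Ngn3-high cells 3 rose and 5 fell (median -0.22 against 0.01), where 26.1% of all genes rose and 24.9% fell. Jarid2 was among the falls, by 1.38, with Mtf2 by 1.23 and Suz12 by 0.51, a call kept in 10 of 12 alternatives. The falls numbered 3 without Ngn3-high library 2 and 4 with any other single library left out. Against Ngn3-low cells, Ins1-RFP positive cells had 2 rises and 7 falls (median -0.50 against -0.08), where 30.4% of all genes rose and 35.5% fell, with 4 falls without Ngn3-low library 2.

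The profile of each member over the 6 libraries was also compared with that of other genes. By Pearson's r of log2(CPM + 1), the genes most like Kdm6b among 10399 with a mean of 10 CPM or more were Mad2l2 (r = 0.998), Lingo1 (0.998), Kremen1 (0.997), Aptx (0.997) and Gse1 (0.997). Those most like Kdm6a were Mrps33 (0.999), Tssc1 (0.992), Ankrd13a (0.992), Prcc (0.991) and Chn1 (0.991). An r of 0.95 or more was reached by 377 genes for Kdm6b and 161 for Kdm6a, and the r between the members was 0.717. The 6 points fall into 3 groups, so r mainly follows the group means. Gse1 averaged 984 CPM in Ngn3-high, against 239 CPM in Ngn3-low cells, and Aptx 30.7 CPM against 23.8 CPM, so likeness here is of shape and not of size.

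Single cells gave the reads of the whole Kdm6b gene in deleted and WT cells. The labels do not name the floxed exons, so these reads do not measure how complete the deletion was. Summed over cells, Kdm6b was at 55.5 CPM in Jmjd3-deleted Ngn3-low cells (2895 reads, exact Poisson 95% interval 53.5 to 57.6), against 131 CPM in WT Ngn3-low cells (4250 reads, 128 to 135). It was at 107 CPM in Jmjd3-deleted Ngn3-high cells (3442 reads, 103 to 110), against 265 CPM in WT Ngn3-high cells (11536 reads, 260.2 to 269.9). These intervals cover counting error only, and with 1 sample a group no difference between single-cell groups was tested. Deleted cells kept 42.2% of the WT level in the Ngn3-low gate and 40.3% in the Ngn3-high gate. On the log2 scale with 1 CPM added, the differences were -1.23 and -1.30. Among 11268 and 11101 genes with 5 CPM or more in either group, 2.65% and 2.76% were at least 2-fold lower in deleted cells. Of the same genes, 1.70% and 2.96% were at least 2-fold higher. Counting Kdm6b itself, 176 and 167 genes lay at its value or lower.

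**Figure D2:**
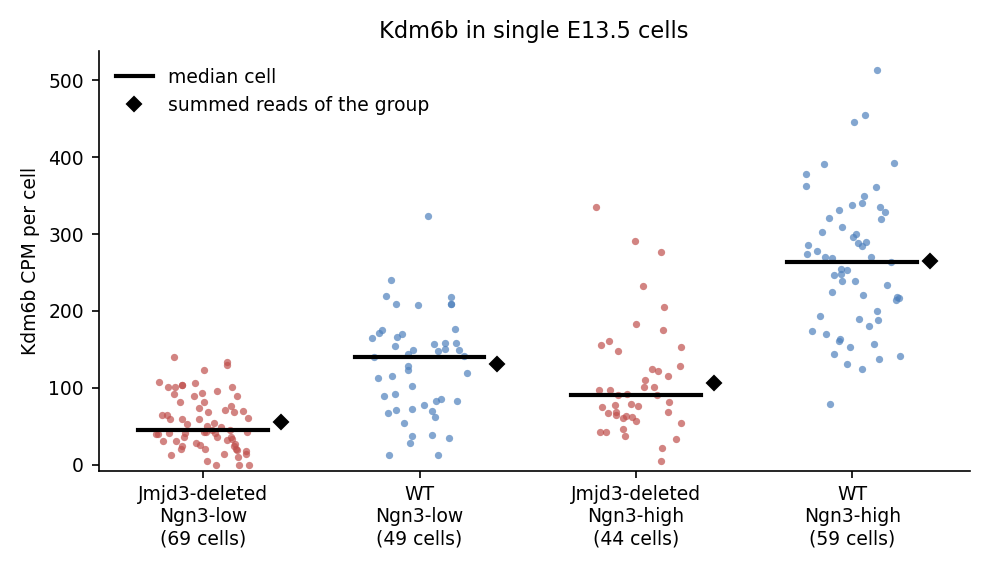
Kdm6b CPM in each single cell (points, vertical axis) of 4 groups, deleted in red and WT in blue, with the median cell as a line and the value from the summed reads as a diamond. The median deleted cell had 45 CPM in the Ngn3-low and 90.4 CPM in the Ngn3-high gate, against 140 CPM and 264 CPM in WT cells.

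The lower level was spread over the deleted cells. In Jmjd3-deleted Ngn3-low cells the lowest cell had 0, the median 45 and the highest 139 CPM, against 12.2, 140 and 323 CPM in WT Ngn3-low cells. In Jmjd3-deleted Ngn3-high cells the lowest was 4.56, the median 90.4 and the highest 335 CPM, against 78.4, 264 and 513 CPM in WT Ngn3-high cells. The groups overlapped, but 0 of 69 deleted Ngn3-low cells and 3 of 44 deleted Ngn3-high cells exceeded the WT median of their gate. Below the lowest WT cell lay 5 of 69 deleted Ngn3-low and 19 of 44 deleted Ngn3-high cells. The range in CPM was narrower in deleted cells of both gates, while the spread relative to the lower mean was larger, with a coefficient of variation of 0.640 in deleted and 0.513 in WT Ngn3-low cells and of 0.666 in deleted and 0.342 in WT Ngn3-high cells.

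Almost every deleted cell still had Kdm6b reads. At least 1 read was found in 66 of 69 deleted Ngn3-low cells (95.7%, Clopper-Pearson 95% interval 87.8 to 99.1%) and in 44 of 44 deleted Ngn3-high cells (92 to 100%), against 49 of 49 WT Ngn3-low cells (92.7 to 100%) and 59 of 59 WT Ngn3-high cells (93.9 to 100%). Thinned to 300000 reads a cell, the counts of cells with a read were the same in all 4 groups. At 10 CPM or more there were 64 of 69 deleted Ngn3-low and 43 of 44 deleted Ngn3-high cells, against all WT cells. The counts are per gene, and the labels do not say which exons are floxed, so reads from the remaining exons of a recombined gene and reads from an intact gene cannot be told apart.

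Kdm6b was higher in the Ngn3-high gate in both genotypes. Jmjd3-deleted Ngn3-high cells stood 0.93 above Jmjd3-deleted Ngn3-low cells on the log2 scale, a 1.92-fold difference, and WT Ngn3-high cells 1.01 above WT Ngn3-low cells, a 2.02-fold difference. Between gates, 15.3% of 11815 genes in deleted and 14% of 11792 genes in WT cells were at least 2-fold higher. Of deleted Ngn3-high cells, 38 of 44 exceeded the median deleted Ngn3-low cell, and of WT Ngn3-high cells 55 of 59 exceeded the median WT Ngn3-low cell. The gates carried their markers. In deleted cells 4 endocrine progenitor genes summed to 3194 CPM in the Ngn3-high against 95.8 CPM in the Ngn3-low gate. In WT cells they summed to 3173 CPM in the Ngn3-high against 92.7 CPM in the Ngn3-low gate. Genes within this sum differed between genotypes in the Ngn3-high gate. Neurog3 stood at 1735 CPM in deleted and 1256 CPM in WT cells, and Neurod1 at 542 and 774 CPM. The white blood cell markers that separated the bulk sorts summed to 15.1 CPM in deleted Ngn3-high against 6.00 CPM in deleted Ngn3-low cells and to 8.85 CPM in WT Ngn3-high against 9.28 CPM in WT Ngn3-low cells. Their part in the bulk difference of Kdm6b was not tested.

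Between the gates, immediate early genes as a set moved against Kdm6b in bulk, whereas in single cells their sum and median moved with it. These genes respond to stimulation and to tissue dissociation. In bulk, 13 of 18 fell and 1 rose in Ngn3-high against Ngn3-low cells (median -1.23), where 30.2% of all genes fell and 27.7% rose, with summed levels of 4256 and 3279 CPM against 9090 and 9157 CPM. In WT single cells the same genes summed to 1316 CPM in the Ngn3-high and 623 CPM in the Ngn3-low gate, and in deleted cells to 1212 and 640 CPM. Of these sums, 1 gene gave 737 CPM in WT and 595 CPM in deleted Ngn3-high cells. Of 13 genes measured in WT cells, 6 were at least 2-fold higher in the Ngn3-high gate and 2 lower (median 0.89 against -0.049 for all genes). Of 12 measured in deleted cells, 5 were higher and 2 lower by this measure (median 0.79 against -0.027). Kdm6b was higher in the Ngn3-high gate in both assays. Ins1-RFP positive against Ngn3-high cells gave 12 rises and 0 falls of immediate early genes with edgeR (median 1.16), where 26.1% of all genes rose and 24.9% fell. Summed levels were 11340 and 8386 CPM in Ins1-RFP positive libraries, while Kdm6b fell. The part of stimulation or dissociation in the values of Kdm6b was not tested.

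Kdm6a was read at a higher level in deleted than in WT cells. Summed over cells it stood at 80.4 CPM in Jmjd3-deleted Ngn3-low cells (4192 reads, exact Poisson 95% interval 78.0 to 82.9), against 62.3 CPM in WT Ngn3-low cells (2014 reads, 59.6 to 65.1). It stood at 127 CPM in Jmjd3-deleted Ngn3-high cells (4085 reads, 123 to 131), against 91.2 CPM in WT Ngn3-high cells (3970 reads, 88.4 to 94.1). The log2 differences were 0.36 and 0.47, under the 2-fold that 1.70% and 2.96% of genes reached, and 15.1% and 13.6% of genes were as high or higher. Between gates Kdm6a was 1.57-fold higher in deleted Ngn3-high than deleted Ngn3-low cells and 1.46-fold higher in WT Ngn3-high than WT Ngn3-low cells, beside a bulk rise of 0.48 on the log2 scale.

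**Figure D3:**
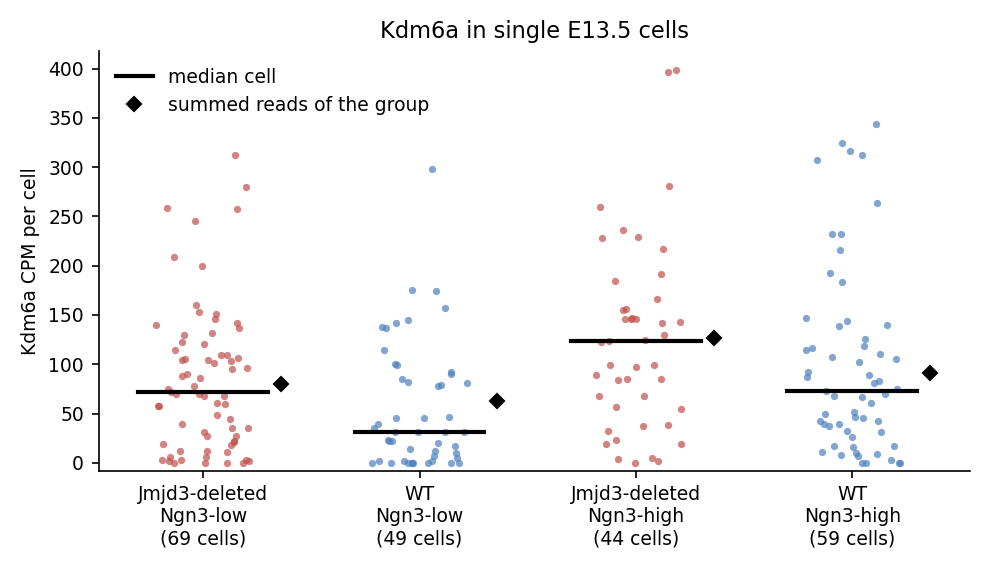
Kdm6a CPM in each single cell (points, vertical axis) of 4 groups, deleted in red and WT in blue, with the median cell as a line and the value from the summed reads as a diamond. The median deleted cell had 72.3 CPM in the Ngn3-low and 123 CPM in the Ngn3-high gate, against 31.7 CPM and 73.1 CPM in WT cells, and all 4 groups overlap.

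Kdm6a reads were more uneven between cells than Kdm6b reads. Deleted Ngn3-low cells ran from 0 to 312 CPM with a median of 72.3, against 0 to 298 CPM with a median of 31.7 in WT Ngn3-low cells. Deleted Ngn3-high cells ran from 0 to 398 CPM with a median of 123, against 0 to 344 CPM with a median of 73.1 in WT Ngn3-high cells. The coefficients of variation were 0.872 in deleted and 1.13 in WT Ngn3-low cells and 0.755 in deleted and 0.948 in WT Ngn3-high cells, each above that of Kdm6b in the same group. A read was found in 65 of 69 deleted Ngn3-low cells (94.2%, Clopper-Pearson 95% interval 85.8 to 98.4%) and in 43 of 44 deleted Ngn3-high cells (97.7%, 88.0 to 99.9%), against 40 of 49 WT Ngn3-low cells (81.6%, 68 to 91.2%) and 55 of 59 WT Ngn3-high cells (93.2%, 83.5 to 98.1%). Thinned to 300000 reads a cell, the counts were 64 and 42 in deleted Ngn3-low and Ngn3-high cells and 37 and 55 in WT Ngn3-low and Ngn3-high cells. A share with any read is a weak measure here, since Uty, at 0.978 CPM in deleted Ngn3-low cells, still gave a read in 33 of 69 of them, and reads of the similar Kdm6a and Uty transcripts may be split between them.

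The deleted and WT cells also differed in X and Y transcripts. Xist reached 10 CPM in 68 of 69 Jmjd3-deleted Ngn3-low and 44 of 44 Jmjd3-deleted Ngn3-high cells, against 20 of 49 WT Ngn3-low and 18 of 59 WT Ngn3-high cells. Uty reached 10 CPM in 0 of 69 and 0 of 44 deleted cells, with Clopper-Pearson 95% upper limits of 5.21% and 8.04%, against 18 of 49 WT Ngn3-low and 31 of 59 WT Ngn3-high cells. Uty summed to 0.978 CPM in deleted Ngn3-low and 1.36 CPM in deleted Ngn3-high cells, against 35.9 CPM in WT Ngn3-low and 50.4 CPM in WT Ngn3-high cells. Genotype and this X and Y composition cannot be told apart in the summed comparisons of Kdm6a and of Kdm6b.

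The sample titles carry a number from 1 to 6, whose meaning the labels do not give, and among WT cells the X and Y transcripts followed it. Among WT Ngn3-low cells Xist reached 10 CPM in 0 of 10 cells of title number 1, 13 of 13 of number 2, 2 of 7 of number 3, 0 of 14 of number 4 and 5 of 5 of number 5. Among WT Ngn3-high cells it did so in 1 of 27 cells of number 1, 16 of 16 of number 5 and 1 of 16 of number 6. All 6 combinations of gate and title number in deleted cells had summed Xist between 515 and 819 CPM. Kdm6a stood at 40.03, 75.5, 90.4, 36.1 and 96.3 CPM in WT Ngn3-low cells of title numbers 1, 2, 3, 4 and 5. In WT Ngn3-high cells it stood at 73.7, 169 and 73.6 CPM in title numbers 1, 5 and 6.

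**Figure D4:**
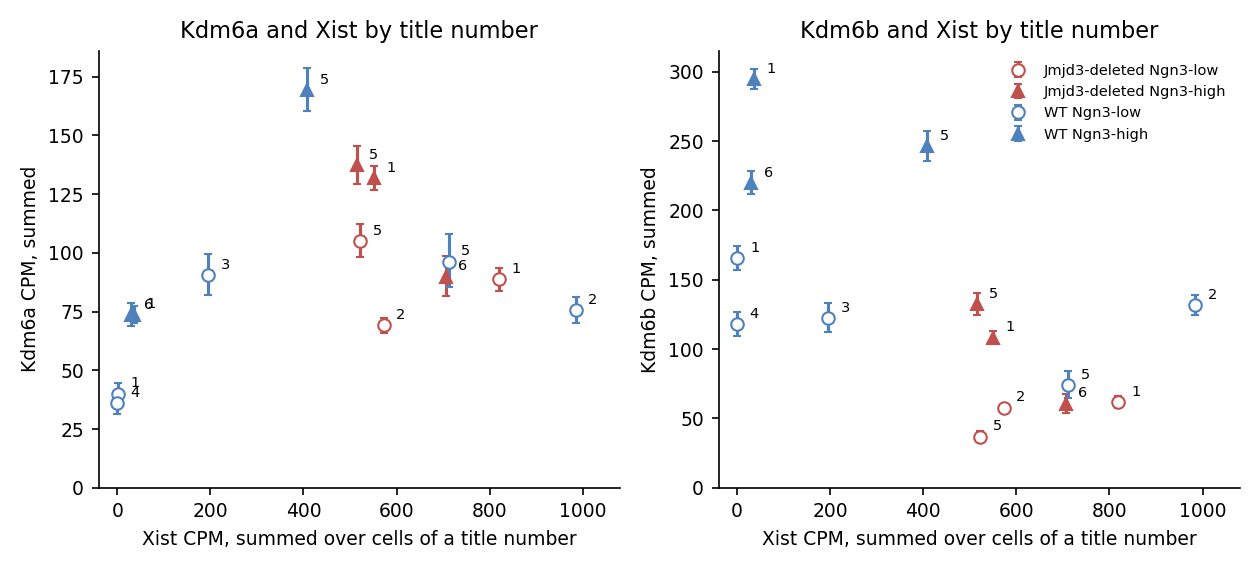
Summed CPM of Kdm6a (left) and Kdm6b (right) against summed Xist CPM for the cells of each group and title number (small digits), with exact Poisson 95% intervals. All points of deleted cells (red) lie at 515 CPM of Xist or more. For Kdm6a the lowest values (36.1 and 40.03 CPM) are WT points (blue) at 0.702 CPM of Xist or less, and the highest (169 CPM) is a WT point at 409 CPM of Xist. For Kdm6b every deleted point lies below every WT point of the same gate.

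Within a title number the higher Kdm6a of deleted cells did not hold everywhere, whereas the lower Kdm6b did. In title number 1, Kdm6a was at 88.7 CPM in deleted against 40.03 CPM in WT Ngn3-low cells and at 132 CPM in deleted against 73.7 CPM in WT Ngn3-high cells. In title number 5 it was at 105 CPM in deleted against 96.3 CPM in WT Ngn3-low cells, and at 137 CPM in deleted against 169 CPM in WT Ngn3-high cells. In title number 2 it was at 69.1 CPM in deleted against 75.5 CPM in WT Ngn3-low cells, and in title number 6 at 89.8 CPM in deleted against 73.6 CPM in WT Ngn3-high cells. The direction thus turned in 2 of 6 such comparisons. Title numbers 2 and 5 were those in which every cell of both genotypes reached 10 CPM of Xist. In number 2 the Y transcripts still differed, with Uty at 27.7 CPM in WT and 0.758 CPM in deleted Ngn3-low cells. Y-linked genes together reached 10 CPM there in 8 of 13 WT and 6 of 36 deleted cells. The part of X and Y transcripts in these directions was not tested.

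Kdm6b was lower in deleted cells in all 6. In Ngn3-low cells it stood at 61.9, 57.7 and 36.9 CPM in deleted cells of title numbers 1, 2 and 5, against 166, 132 and 73.9 CPM in WT cells of the same numbers. In Ngn3-high cells it stood at 108, 132 and 60.8 CPM in deleted cells of title numbers 1, 5 and 6, against 295, 246 and 220 CPM in WT cells. The residual level was thus 27.6% to 53.7% of WT. The highest shares in each gate were those of title number 5, 49.97% in Ngn3-low and 53.7% in Ngn3-high cells.

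**Figure D5:**
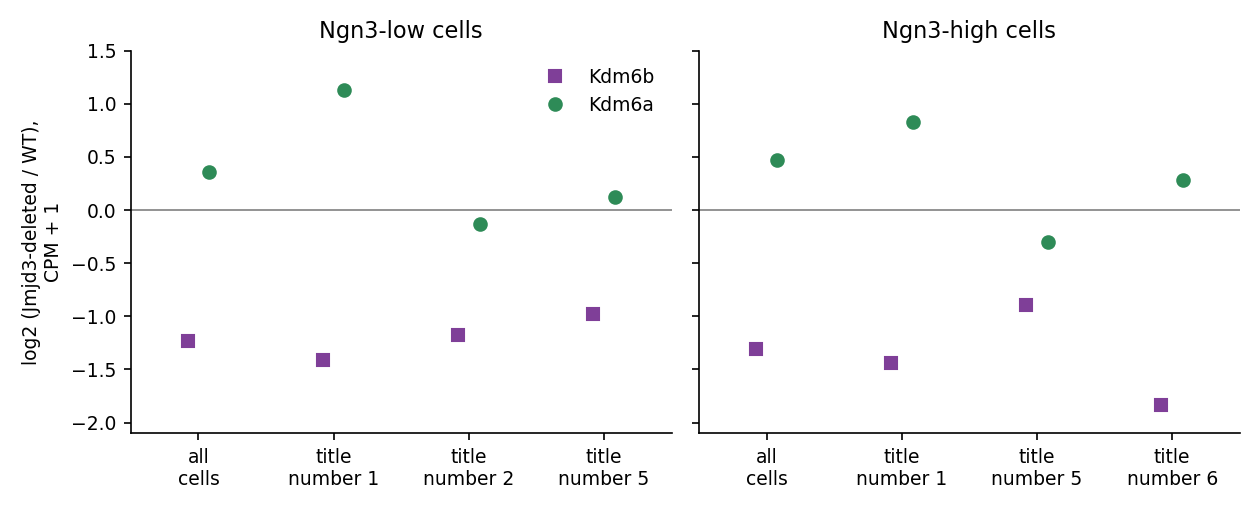
log2 ratio of deleted to WT CPM (1 CPM added to each side) of Kdm6b (squares) and Kdm6a (circles) in Ngn3-low (left) and Ngn3-high cells (right), over all cells and within each title number that both genotypes have. Kdm6b lies between -1.84 and -0.89 throughout, whereas Kdm6a lies between -0.30 and 1.13.

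The spread between title numbers sets the order of the 4 groups. For Kdm6b the title numbers ran from 36.9 to 61.9 CPM in deleted Ngn3-low, 60.8 to 132 CPM in deleted Ngn3-high, 73.9 to 166 CPM in WT Ngn3-low and 220 to 295 CPM in WT Ngn3-high cells. WT Ngn3-high cells stood apart from all others, deleted Ngn3-low cells stood below WT Ngn3-low cells, and deleted Ngn3-high cells overlapped with both Ngn3-low groups. These ranges set different title numbers against each other. Within title numbers 1 and 5, which both gates share, Kdm6b was higher in the Ngn3-high gate in both genotypes. The log2 differences were 0.80 and 1.81 in deleted and 0.83 and 1.72 in WT cells. For Kdm6a the title numbers ran from 36.1 to 96.3 CPM in WT Ngn3-low and 69.1 to 105 CPM in deleted Ngn3-low cells. They ran from 73.6 to 169 CPM in WT Ngn3-high and 89.8 to 137 CPM in deleted Ngn3-high cells. Each range overlapped with every other. Within title numbers 1 and 5, Kdm6a was higher in the Ngn3-high gate by 0.57 and 0.38 in deleted and by 0.86 and 0.81 in WT cells.

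Divided by the full gene length, summed Kdm6b was below Kdm6a in deleted cells and above it in WT cells. The labels do not say which exons are floxed. The length that a recombined Kdm6b gene can still give reads from is therefore not known, and its level per length in deleted cells may be understated. Kdm6b stood at 8.35 RPKM and Kdm6a at 13.55 RPKM in deleted Ngn3-low cells, and at 16.03 and 21.3 RPKM in deleted Ngn3-high cells. In WT Ngn3-low cells they stood at 19.8 and 10.5 RPKM, and in WT Ngn3-high cells at 39.8 and 15.4 RPKM. Kdm6b exceeded Kdm6a per length in 27 of 69 deleted Ngn3-low and 21 of 44 deleted Ngn3-high cells, against 38 of 49 WT Ngn3-low and 49 of 59 WT Ngn3-high cells. By title number, Kdm6b was the higher in 0 of 3 for both deleted gates, against 4 of 5 for WT Ngn3-low and 3 of 3 for WT Ngn3-high cells. The exception was title number 5 of the WT Ngn3-low cells, 5 cells with 11.1 RPKM of Kdm6b and 16.2 RPKM of Kdm6a. The X and Y composition given above differed between these groups as well, and its part in these ratios was not tested.

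Across cells of a group the members did not follow each other. Spearman's correlation between Kdm6b and Kdm6a was -0.03 in 69 deleted Ngn3-low, -0.28 in 44 deleted Ngn3-high, -0.05 in 49 WT Ngn3-low and -0.21 in 59 WT Ngn3-high cells. Kdm6a with Xist gave 0.21 and 0.02 in deleted Ngn3-low and Ngn3-high cells and 0.22 and 0.44 in WT Ngn3-low and Ngn3-high cells. With the Y-linked sum, Kdm6a gave -0.20 and -0.15 in the same deleted groups and -0.25 and -0.31 in the same WT groups. Kdm6b with Xist gave 0.02 and -0.37 in these deleted groups and -0.20 and -0.25 in these WT groups. Cells of a group differ in title number and in depth, which can both move such values, so they are descriptions only. The highest Spearman correlation with Kdm6b was 0.56 (Edrf1) in WT Ngn3-low and 0.52 (Selm) in WT Ngn3-high cells, and with Kdm6a 0.54 (Dcp1b) and 0.46 (Wipi2), over 11398 and 10806 genes whose median correlation lay within 0.02 of 0. In WT Ngn3-high cells Xist was among the 5 genes most like Kdm6a.

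The related genes were also compared between deleted and WT cells. Of 21 JmjC family genes measured in each gate, 2 were at least 2-fold lower in deleted cells, the Y-linked Uty and Kdm5d, and 0 were higher, with medians of 0.08 in Ngn3-low and 0.02 in Ngn3-high cells against 0.02 and 0.03 for all genes. Of 9 genes of the Utx complexes and 10 PRC2 genes, 0 differed 2-fold in either gate, where 1.70% to 2.96% of all genes did in each direction, so that a list of this size would hold few such genes or none at the background share. Ezh2 stood at 143 CPM in deleted and 145 CPM in WT Ngn3-low cells, and at 70.4 CPM in deleted and 68.8 CPM in WT Ngn3-high cells. Ezh1 stood at 24.03 CPM in deleted against 27.1 CPM in WT Ngn3-low cells and at 34.7 CPM in deleted against 33.2 CPM in WT Ngn3-high cells.

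The 18 genes of these lists named from the bulk comparison of the gates were followed between the single-cell gates. The sign was that of the bulk change for 17 of 18 in deleted cells, for 16 of 18 in WT cells and for 15 of 18 in both. These genes were picked by the size of a called bulk change. The share of all genes called in bulk that keep their sign is not given here, so the counts do not set these lists apart. Kdm7a was higher by 1.71 in deleted Ngn3-high than deleted Ngn3-low cells and by 2.05 in WT Ngn3-high than WT Ngn3-low cells, and Paxip1 by 1.75 in deleted and 1.38 in WT cells (log2). Ezh2 was lower by 1.01 in deleted and 1.06 in WT cells, and Phf1 was higher by 2.18 in deleted and 2.02 in WT cells. The exceptions were Phf8, Jmjd1c and Kdm2b. Phf8, which rose in bulk, had -0.17 in deleted and 0.29 in WT cells. Jmjd1c and Kdm2b, which fell in bulk, had -0.55 and -0.27 in deleted cells, and 0.46 and 0.51 in WT cells.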

How the data were processed

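RNA-seq read counts per gene were deposited for 6 bulk libraries and 221 single cells, all used here; 31 chromatin samples were not analysed here. The authors' notes name TopHat2 2.1.0, HTSeq 0.6.0, DESeq 1.20.0 and mm10, per the submitters' processing notes; the strand setting is not given in the sources used here. Gene lengths are a column of the count tables. RPKM values deposited by the authors were used only to check those computed here, and the deposited single-cell RPKM values include spike-in reads in their totals. Spike-in (ERCC) rows, 92 of them, were left out of CPM. Bulk counts were tested with edgeR 4.0.16 (TMM, filterByExpr, all 6 libraries in 1 fit, quasi-likelihood test, Benjamini-Hochberg over 15684 genes), after the script was tested on simulated data. Single-cell counts were summed per group and given without a test, with exact Poisson and Clopper-Pearson 95% intervals and 1 CPM added on the log2 scale. Every cell passed a minimum of 100000 reads. List genes were named as up to 4 per list, comparison and direction, by size of change among those past an adjusted p of 0.05 and at a mean of 10 CPM or more. The members, lists and tests were chosen with earlier results of these data known. Alternatives covered DESeq2 1.42.0, scaling, filtering, the groups fitted, the replicate block, each library or title number left out, and cell filters. Same-numbered bulk libraries deviated together at correlations of 0.0935, 0.107 and 0.0895, so the numbers were not taken as pairs. A set of genes for stray reads is not reported here. R 4.3.3 and Python 3.11.15 were used.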

Additional observations from a re-analysis of the deposited data

How the results depend on the processing

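The bulk rise of Kdm6b in Ngn3-high against Ngn3-low cells (0.89 to 1.08 with each library left out) and its difference between Ins1-RFP positive and Ngn3-low cells (0.50 to 0.71) kept their calls under all 12 alternatives. The difference of Kdm6b between Ins1-RFP positive and Ngn3-high cells was -0.38 and not called with only those groups fitted, and -0.50 to -0.29 with each library left out. Kdm6a ran from 0.44 to 0.53 in Ngn3-high against Ngn3-low cells and from -0.58 to -0.33 in Ins1-RFP positive against Ngn3-high cells. In Ins1-RFP positive against Ngn3-low cells it ran from -0.093 to 0.16, with -0.01 without Ngn3-low library 2, and was -0.14 with total counts, a scaling that shifted the median of all genes by -0.17. With the replicate number as a block, the differences of Kdm6b were 0.99, -0.39 and 0.60 and those of Kdm6a 0.48, -0.45 and 0.03, and no call of either gene changed.

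In single cells the values have no test. Kdm6b in deleted against WT Ngn3-low cells was -1.34 per ERCC read, -1.32 in cells of 500000 reads or more and -0.98 within title number 5, and -1.30 to -1.15 with each title number left out. In deleted against WT Ngn3-high cells it was -1.25, -1.39 and -0.89 in the same order, and -1.44 to -1.14. Between gates in deleted cells it was 0.76 per ERCC read, 1.11 over shared title numbers, 0.85 without the highest cells and 0.73 to 1.04 with each title number left out. Between gates in WT cells it was 0.66 per ERCC read and 0.95 to 1.10 with each title number left out. Kdm6a in deleted against WT Ngn3-low cells was 0.59 as a mean of cells, 0.25 per ERCC read, 0.20 in cells of 500000 reads or more, 0.45 without the highest cells, 0.12 within title number 5 and 0.13 to 0.74 with each title number left out. In deleted against WT Ngn3-high cells it was 0.35 as a mean of cells, 0.68 in cells of 500000 reads or more, -0.30 within title number 5 and 0.086 to 0.73. Between gates in deleted cells it was 0.56 as a mean of cells, 0.48 per ERCC read, 0.49 over shared title numbers and 0.42 to 0.72. Between gates in WT cells it was 0.80, 0.20 and 0.84 in that order, 0.21 in cells of 500000 reads or more and 0.32 to 0.68. At 10 CPM or more, 84.1% of deleted Ngn3-low cells had Kdm6a. The values within title number 5, the only one with cells of all 4 groups beside number 1, were added after seeing the data, and the cause of these shifts was not tested.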
